A study of Mus musculus with 12 samples.

Results

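The genes described here are 9 genes of connective tissue mast cells, taken by symbol from the deposited tables of all 12 libraries: the granule proteases Cma1, Mcpt4, Tpsb2 and Cpa3, the receptors Kit, Fcer1a and Ms4a2, the histamine-forming enzyme gene Hdc and the transcription factor gene Gata2. Each of the 9 was found among the 21851 genes used. The libraries were made from total RNA of cells in peritoneal lavage fluid of C57BL/6J mice, 3 for each of 4 groups: wild type given PBS, wild type given LPS, lactoferrin knockout given PBS and lactoferrin knockout given LPS, all by intraperitoneal injection. The study asked how loss of lactoferrin, the iron-binding protein encoded by Ltf and stored in neutrophil granules, alters expression during acute inflammation raised by LPS, the bacterial outer membrane lipopolysaccharide. The labels give no dose, time after injection, age, sex or knockout allele, and do not say that replicates came from separate mice, so p-values measure the spread between these libraries only. Titles of the knockout libraries name wild-type mice, whereas their codes, descriptions and characteristics name the knockout, which was used.

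Mast cells are resident in the peritoneal cavity and store preformed mediators in granules, where histamine and proteases are bound to heparin on the proteoglycan serglycin. They mature and survive under signals from KIT, the receptor for stem cell factor, and release their granules when antigen cross-links IgE on the high-affinity receptor FcεRI, which is built from an alpha chain (Fcer1a), a beta chain (Ms4a2) and a gamma chain dimer (Fcer1g). Granules of connective tissue mast cells of the mouse hold the chymases mMCP-4 (Mcpt4) and mMCP-5 (Cma1), the tryptase mMCP-6 (Tpsb2) and carboxypeptidase A3 (Cpa3). GATA2 is needed for the development of mast cells and is active at many of their genes. Several of these genes are not confined to mast cells: basophils also carry FcεRI, and basophils and neutrophils can express Hdc.

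The values, whose unit is not stated, were taken as FPKM, fragment numbers scaled by transcript length and library size. On that scale genes can be compared with each other, while comparison between libraries also depends on the scaling chosen, as described below. The number of reads behind a value is not known. Library totals lay between 343874 and 388129 FPKM, with 13921 to 14574 genes above 0. Ltf, which checks the genotype labels, had 1.16 to 1.89 FPKM in wild type under PBS, 0.176 to 1.33 in wild type under LPS, 0.183 to 0.258 in the knockout under PBS and 0.0699 to 0.117 in the knockout under LPS. Its log2(FPKM + 1) was 0.73 lower in the knockout (difference -0.73; two-sided, exact permutation within agent, p = 0.005, the smallest the 400 relabellings can give). Markers of peritoneal macrophages (summed level of 10 genes 848 to 2793 FPKM) and B cells (7 genes, 148 to 1133 FPKM) were present, and 6 mesothelial markers summed to at most 4.27 FPKM. The 3 libraries richest in globin RNA were wild-type LPS replicate 2 (2203 FPKM), knockout LPS replicate 1 (1867 FPKM) and wild-type PBS replicate 2 (327 FPKM). The others held at most 43.4 FPKM.

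The granule genes were among the more abundant members and the receptor and factor genes far lower. Means over the 12 libraries were 199 FPKM for Cma1, 156 for Mcpt4, 144 for Tpsb2, 135 for Hdc, 114 for Cpa3, 18.0 for Fcer1a, 6.45 for Kit, 2.98 for Gata2 and 0.883 for Ms4a2. Neighbours among the first 5 overlapped in their ranges over libraries, and so did Fcer1a and Kit (2.07 to 28.3 against 4.74 to 10.1 FPKM) and Kit and Gata2 (highest Gata2 5.25 FPKM). Cpa3 and Fcer1a did not overlap (lowest Cpa3 49.4 FPKM), nor did Gata2 and Ms4a2 (1.65 FPKM lowest against 1.63 highest). The 9 genes together took 0.137% to 0.303% of a library's summed FPKM. Ms4a2 was above 0 in all 12 libraries but under the mean of 1 FPKM required for the test across genes, so 8 of the 9 members were tested and Ms4a2 is given by its values.

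**Figure D1:**
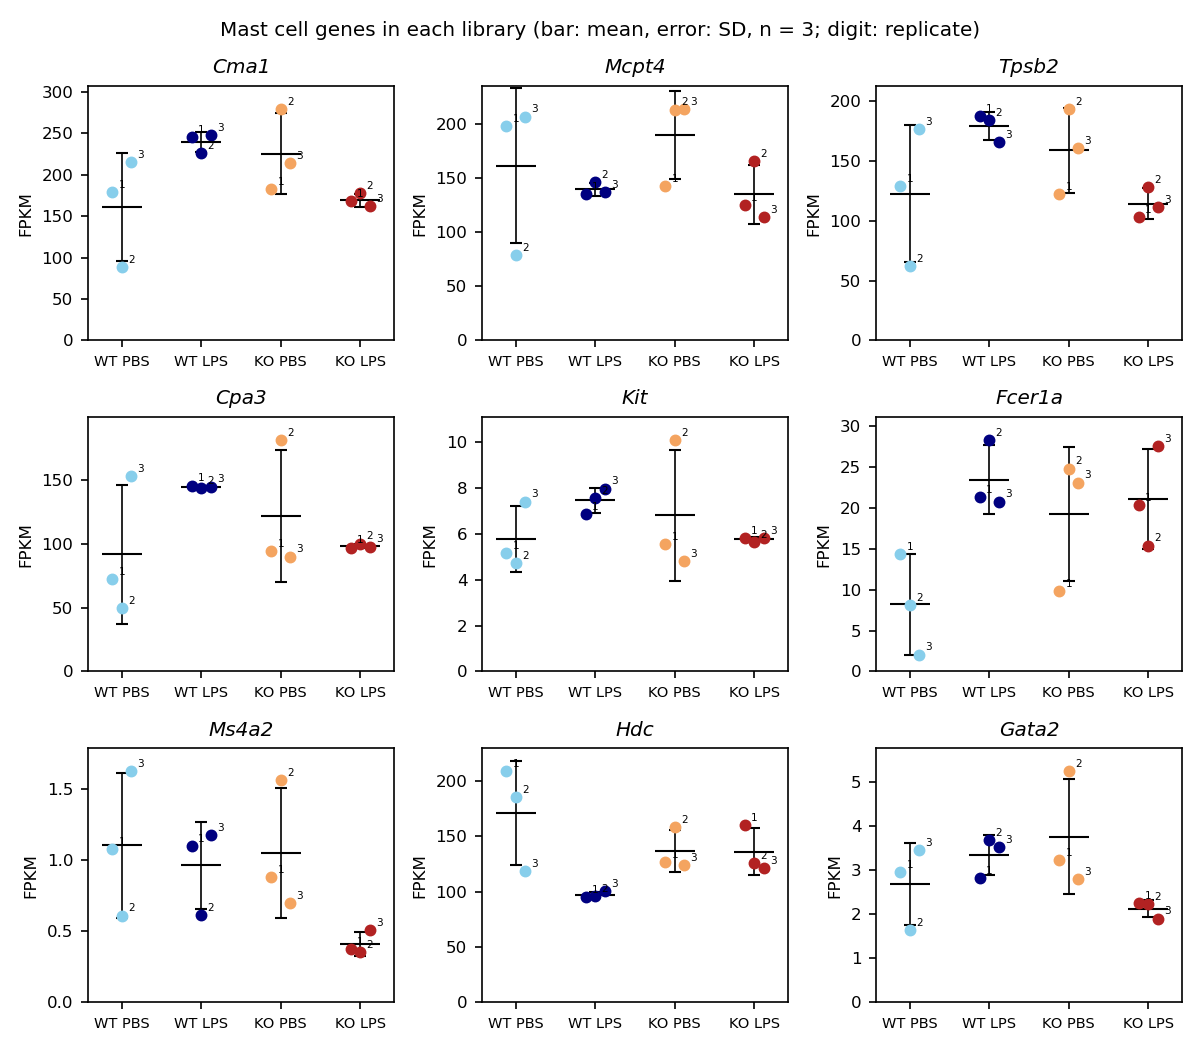
FPKM of the 9 mast cell genes in each library, with the 4 groups along the horizontal axis, points for libraries (digit: replicate number), bars for group means and error bars for SD (n = 3). Under LPS, the knockout points of Cma1, Tpsb2, Cpa3, Kit, Ms4a2 and Gata2 lie below all wild-type points and those of Hdc above them, while under PBS the genotypes overlap for all 9 genes.

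The chymase genes Cma1 (ENSMUSG00000022225, chromosome 14, 55941451 to 55944675, minus strand) and Mcpt4 (ENSMUSG00000061068, chromosome 14, 56059629 to 56062313, minus strand) lie in one protease cluster (GENCODE annotation of GRCm38, protein coding, as are all 9 members). In the stretch from Cma1 to Gzme, only these were abundant, and genes beyond Gzme were not covered. The genes annotated between them had means of 0.370 FPKM (Cma2), 0 (Mcpt1, the mMCP-1 chymase of mucosal mast cells), 0.00399 (Mcpt9) and 0.0153 (Mcpt2, also of mucosal mast cells), and the next genes beyond Mcpt4 had 0.0575 (Mcpt8, a protease that defines basophils), 0.827 (Ctsg, cathepsin G) and 0 (Gzme). This stretch was thus read at high level for the connective tissue chymases and at or near 0 for the mucosal and basophil proteases. Tpsb2 (ENSMUSG00000033825, chromosome 17, 25366305 to 25369098, plus strand) stood out in the same way among the tryptase genes beside it, with Prss34 at 1.24 FPKM, Prss28 at 0.0131, Prss29 at 0 and Tpsg1, the transmembrane tryptase, at 0.820. Tpsab1 was not analysed here. These proteases are related in sequence, and how reads shared between relatives were treated is not stated.

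**Figure D2:**
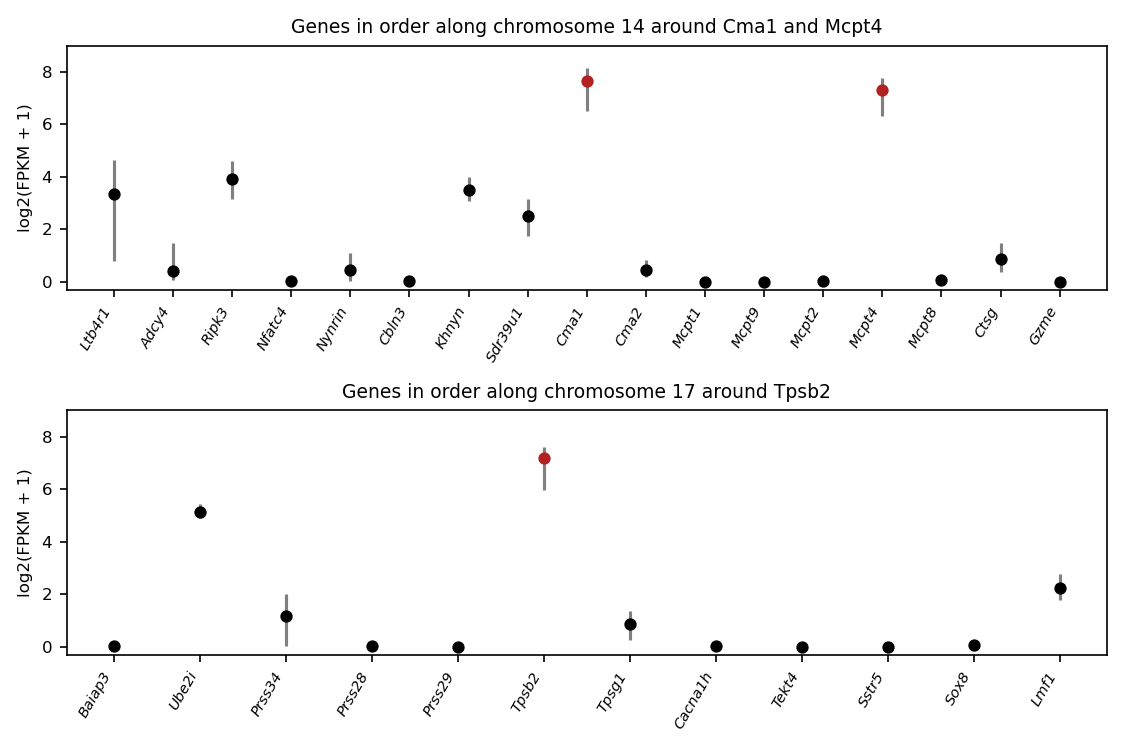
Level (log2 of FPKM + 1) of the genes in their order on the chromosome around Cma1 and Mcpt4 (top) and Tpsb2 (bottom), with points for the mean of 12 libraries, lines from the lowest to the highest library, and mast cell members in red. Cma1, Mcpt4 and Tpsb2 stand far above the protease genes beside them, such as Cma2 (0.370 FPKM) and Tpsg1 (0.820 FPKM).

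Cpa3 (ENSMUSG00000001865) lies on chromosome 3, 20215620 to 20242181, minus strand, and is the one member that shares bases with another annotated gene, the microRNA gene Mir7007 on the same strand. Kit (ENSMUSG00000005672, chromosome 5, 75574916 to 75656722, plus strand), Gata2 (ENSMUSG00000015053, chromosome 6, 88193891 to 88207032, plus strand) and Hdc (ENSMUSG00000027360, chromosome 2, 126593667 to 126619299, minus strand) overlap no other annotated gene. Fcer1a (ENSMUSG00000005339, chromosome 1, 173221284 to 173227214, minus strand) lies among olfactory receptor genes, of which the 6 nearest were at 0 FPKM in all libraries. Ms4a2 (ENSMUSG00000024680, chromosome 19, 11615523 to 11623719, minus strand) lies in the Ms4a cluster, and its neighbour Ms4a6d, a gene of myeloid cells, had a mean of 373 FPKM against its own 0.883.

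The bases just before the start of members are shown because GATA2 is itself a member. Whether GATA2 acts on the other members in these cells was not tested. RefSeq promoters of GRCm38.p6 were matched by symbol for 8 of the 9 members, leaving Tpsb2. Capitals mark AGATA or TGATA, the core of the GATA family's motif, on either strand (TATCT or TATCA on the printed strand), in the 250 bases before the start, printed in the direction of the gene. The 3 protease genes come first, followed by the 2 IgE receptor chains.
Cma1 (chr14:55944676-55944925, minus strand): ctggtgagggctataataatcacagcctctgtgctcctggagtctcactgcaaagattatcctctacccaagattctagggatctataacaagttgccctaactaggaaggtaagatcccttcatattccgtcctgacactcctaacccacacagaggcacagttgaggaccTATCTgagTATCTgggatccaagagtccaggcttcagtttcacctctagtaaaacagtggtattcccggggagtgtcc
Mcpt4 (chr14:56062311-56062560, minus strand): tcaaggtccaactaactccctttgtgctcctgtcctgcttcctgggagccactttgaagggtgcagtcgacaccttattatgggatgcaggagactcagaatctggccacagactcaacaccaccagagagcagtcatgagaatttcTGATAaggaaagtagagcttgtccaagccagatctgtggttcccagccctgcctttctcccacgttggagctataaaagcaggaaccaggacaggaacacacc
Cpa3 (chr3:20242182-20242431, minus strand): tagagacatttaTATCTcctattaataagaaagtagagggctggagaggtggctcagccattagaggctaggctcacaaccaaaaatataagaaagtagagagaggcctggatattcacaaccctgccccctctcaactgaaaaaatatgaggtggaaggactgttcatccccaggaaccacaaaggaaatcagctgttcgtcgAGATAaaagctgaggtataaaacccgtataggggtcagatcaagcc
Fcer1a (chr1:173227230-173227479, minus strand): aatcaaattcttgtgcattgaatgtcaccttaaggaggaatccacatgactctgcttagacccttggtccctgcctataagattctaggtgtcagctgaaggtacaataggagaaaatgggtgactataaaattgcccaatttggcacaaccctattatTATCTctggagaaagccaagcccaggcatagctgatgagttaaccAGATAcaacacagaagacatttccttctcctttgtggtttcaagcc
Ms4a2 (chr19:11623720-11623969, minus strand): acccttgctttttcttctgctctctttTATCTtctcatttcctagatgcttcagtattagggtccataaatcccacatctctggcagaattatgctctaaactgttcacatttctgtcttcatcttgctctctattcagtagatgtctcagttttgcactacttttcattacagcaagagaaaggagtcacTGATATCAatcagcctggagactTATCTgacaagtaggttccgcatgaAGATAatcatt
Of the 8 members matched, 6 held at least 1 such core: Ms4a2 held 5 (a pair of which overlap, printed as one run of capitals), Cma1, Cpa3 and Fcer1a 2 each, and Mcpt4 and Hdc 1 each, while Kit and Gata2 held 0. Among all 32851 promoter windows of this length, 40.0% held at least 1 and 5.07% held 3 or more. The E-box core CANNTG was in 4 of the 8 members, against 66.2% of all windows. These are matches of letters, described without a test.

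In wild type, LPS went with more Fcer1a and Cma1 RNA and less Hdc RNA. Of the 8 members tested, 2 were called higher and 1 lower, against 62.2% of the 9841 genes tested called in this comparison (24.8% higher and 37.4% lower). A gene was called at an adjusted p under 0.05 (limma on log2(FPKM + 1), two-sided, Benjamini-Hochberg over all genes tested). Groups of 3 libraries lay apart for 2 members upwards and 1 downwards of 9, against 66.2% of genes tested (27.2% higher and 38.9% lower). The median log2 fold change was 0.50 for the 8 members and -0.11 for all genes tested.

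Hdc, whose enzyme makes histamine from histidine, had 209, 185 and 118 FPKM in wild type under PBS and 95.0, 95.8 and 100.5 under LPS. All libraries under LPS were below all under PBS. The log2 fold change was -0.77 ± 0.20 (SE, n = 3 and 3, adjusted p = 0.00537, limma), and without the 3 libraries richest in globin RNA it was -0.68 ± 0.25 and not called (adjusted p = 0.0502). In the knockout Hdc stood at 127, 159 and 124 FPKM under PBS and 160, 126 and 122 under LPS, groups that overlap, with a log2 fold change of -0.01 ± 0.20 (adjusted p = 0.972, limma; 95% interval -0.44 to 0.42). The difference between these responses was 0.76 ± 0.28 and was not called (adjusted p = 0.453, limma interaction).

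Neutrophil genes also fell with LPS in wild type. The summed level of 8 neutrophil markers was 1969 to 3293 FPKM in wild type under PBS and 153 to 280 under LPS, with 7 of 8 called lower (37.4% of all genes tested were). In the knockout it was 1216 to 3068 and 714 to 2676 FPKM, with 2 of 8 called lower (33.3% of all genes tested). Their part in the level of Hdc was not tested. The markers and Hdc correlated weakly within groups (r = 0.33 over deviations of the 12 libraries from their group means, a description).

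Fcer1a, the chain of FcεRI that binds IgE, had 14.4, 8.13 and 2.07 FPKM in wild type under PBS and 21.3, 28.3 and 20.8 under LPS. The LPS libraries were all above the PBS libraries, which themselves spread widely. The log2 fold change was 1.68 ± 0.50 (SE, adjusted p = 0.0123, limma). It was 1.03 ± 0.37 without wild-type PBS replicate 3, the lowest library, and 1.54 ± 0.62 and not called without the 2 libraries richest in globin RNA (adjusted p = 0.0611). In the knockout the values were 9.79, 24.8 and 23.1 FPKM under PBS and 20.3, 15.4 and 27.6 under LPS, which overlap (0.19 ± 0.50, adjusted p = 0.767, limma).

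The other FcεRI chains were not called or not tested. Ms4a2, the signal-amplifying beta chain, had 1.08, 0.611 and 1.63 FPKM in wild type under PBS and 1.10, 0.615 and 1.18 under LPS, which overlap. The gamma chain gene Fcer1g, which macrophages and other myeloid cells also express, had a mean of 500.02 FPKM, and its log2 fold change was -0.05 ± 0.30 in wild type and 0.05 ± 0.30 in the knockout, neither called (adjusted p = 0.891 and 0.910, limma). Of 7 basophil markers, Mcpt8, which defines the cell type, stood between 0 and 0.160 FPKM over the 12 libraries, Il4 between 0 and 0.325, Cd200r3 between 0.0568 and 0.370 and Il13 between 0 and 1.07. Prss34 (0.0349 to 3.04 FPKM) and Cyp11a1 (0.784 to 3.26 FPKM) were higher. The eosinophil granule gene Epx was at 0 in all libraries. The summed level of the 7 basophil markers nevertheless rose from 130 FPKM or less to 506 or more in wild type, through Ccl3, a chemokine that macrophages also make, the one of 3 tested that was called (2.77 ± 0.29, adjusted p = 1.68e-05, limma).

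Cma1 had 179, 88.9 and 215 FPKM in wild type under PBS and 245, 226 and 248 under LPS. All LPS libraries were above all PBS libraries, by a small margin over replicate 3. The log2 fold change was 0.66 ± 0.27 (SE, adjusted p = 0.0490, limma), just inside the threshold. Wild-type PBS replicate 2 was the lowest of all 12 libraries for Cma1, Mcpt4, Tpsb2, Cpa3 and Gata2, and without it the fold change was 0.28 ± 0.17 and not called. Leaving out any of the 3 wild-type LPS libraries, knockout PBS replicate 1 or 3, or any of the 3 knockout LPS libraries also ended the call (adjusted p of 0.0535 to 0.110, limma), with a fold change of 0.64 to 0.70.

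The other proteases and Kit were not called in wild type, and their PBS and LPS groups overlap. Cpa3, an exopeptidase, had 72.4, 49.4 and 154 FPKM under PBS and 146, 144 and 145 under LPS, with a log2 fold change of 0.81 ± 0.35 (adjusted p = 0.0615, limma). Tpsb2 had 129, 62.2 and 177 FPKM under PBS and 187, 184 and 166 under LPS (0.66 ± 0.30, adjusted p = 0.0766, limma). Mcpt4 differed from these in sign, with 198, 78.9 and 206 FPKM under PBS and 135, 146 and 137 under LPS (-0.09 ± 0.32, adjusted p = 0.828, limma). Kit had 5.17, 4.74 and 7.40 FPKM under PBS and 6.87, 7.55 and 7.97 under LPS, and Gata2 2.95, 1.65 and 3.46 under PBS and 2.83, 3.68 and 3.52 under LPS. Neither was called. The wild-type LPS libraries lay close together, with a coefficient of variation of 0.672% for Cpa3, 5.02% for Cma1 and 3.04% for Hdc, against 59.7%, 40.4% and 27.5% under PBS.

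A rescaling of all libraries by the median of ratios moved the median log2 fold change of all genes tested from -0.11 to 0.05 in this comparison, and then 5 of the 8 members were called. Those were 4 higher and 1 lower, Tpsb2 (adjusted p = 0.0265) and Cpa3 (adjusted p = 0.0247, limma) being the added ones. The same 2 were added without wild-type PBS replicate 3, the highest of its group for both (0.99 ± 0.27 and 1.26 ± 0.26). Without wild-type PBS replicate 2, Mcpt4 was called lower, at -0.54 ± 0.20 (adjusted p = 0.0372, limma).

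In the knockout no member was called higher with LPS, and 1 of the 8 tested, Gata2, was called lower, against 53.2% of all genes tested (19.9% higher and 33.3% lower). The median log2 fold change of the members was -0.31, and that of all genes tested -0.13. Gata2 had 3.23, 5.25 and 2.81 FPKM under PBS and 2.25, 2.23 and 1.90 under LPS. The groups do not overlap, and the log2 fold change was -0.57 ± 0.21 (SE, adjusted p = 0.0374, limma). The call did not hold under median of ratios scaling (adjusted p = 0.0887), without knockout PBS replicate 2, the highest library (-0.36 ± 0.20, adjusted p = 0.159), without knockout PBS replicate 1, or without any of the 3 knockout LPS libraries (adjusted p of 0.0519 to 0.0962, limma).

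Cma1 in the knockout had 183, 279 and 214 FPKM under PBS and 168, 178 and 162 under LPS, lower in every LPS library, with a log2 fold change of -0.39 ± 0.27 (adjusted p = 0.242, limma). Without wild-type PBS replicate 2, which enters only through the shared spread, Cma1 and Mcpt4 were called lower here too (adjusted p = 0.0480 and 0.0396). Ms4a2 also had no overlap, with 0.885, 1.57 and 0.697 FPKM under PBS and 0.373, 0.356 and 0.507 under LPS (difference of -0.52 in log2(FPKM + 1), two-sided exact permutation p = 0.10, the smallest that 3 against 3 can give). For the other 6 members the groups overlap, and 66% of all genes tested had groups that do not (24.6% higher and 41.3% lower). Mcpt4 had 142, 213 and 213 FPKM under PBS and 125, 165 and 114 under LPS (-0.48 ± 0.32), and Tpsb2 122, 193 and 161 under PBS and 103, 129 and 111 under LPS (-0.45 ± 0.30). Cpa3 had 94.5, 182 and 90.2 FPKM under PBS and 97.3, 100.5 and 98.0 under LPS, and Kit 5.54, 10.1 and 4.79 under PBS and 5.80, 5.65 and 5.82 under LPS. For both, the PBS mean was carried by knockout PBS replicate 2, the highest library for Cma1, Cpa3, Tpsb2, Kit and Gata2.

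**Figure D3:**
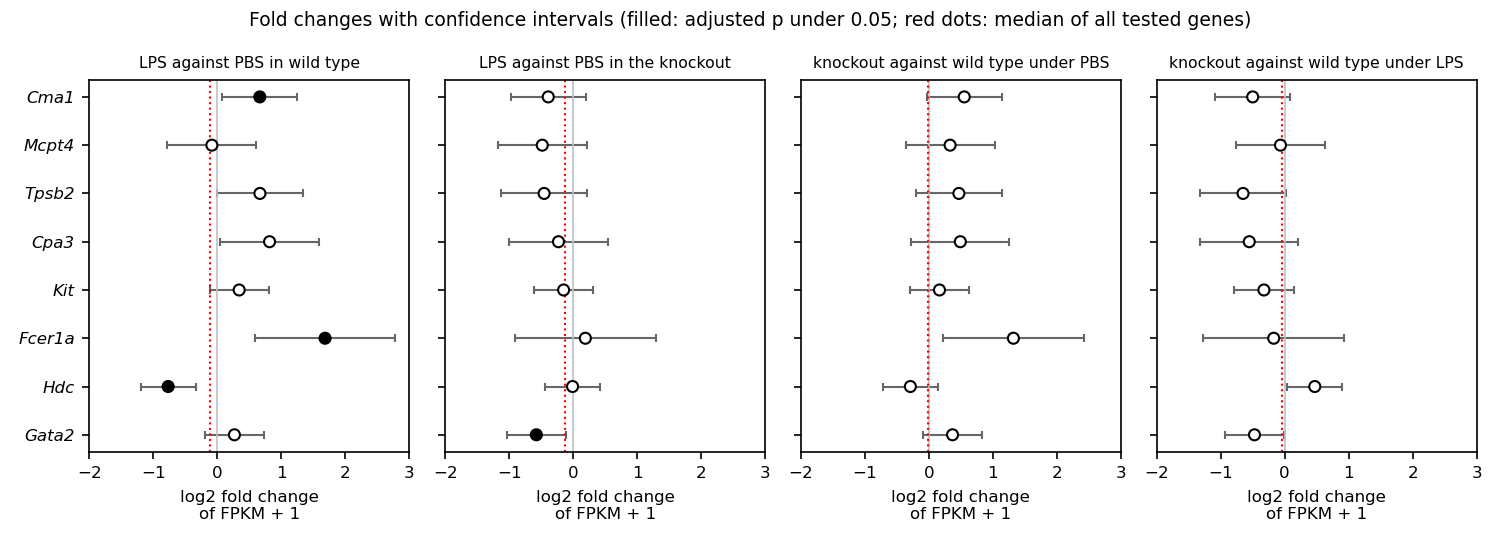
Log2 fold changes of FPKM + 1 (horizontal axis) of the 8 mast cell genes tested, with 95% intervals from limma, in the 4 comparisons of a pair of groups. Filled points passed an adjusted p of 0.05, and the dotted red line is the median of all 9841 genes tested. The points of Cma1, Tpsb2 and Cpa3 lie right of 0 for LPS in wild type and left of it for LPS in the knockout.

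Between the genotypes under PBS, the members overlapped. None of the 8 was called (limma; 11 of 9841 genes, 0.112%, were, 0.0203% higher and 0.0915% lower), and for 0 of the 9 members did the groups of 3 lie apart, against 13.4% of genes tested (6.04% higher and 7.34% lower). The fold changes of knockout against wild type had a median of 0.42 over the 8 members, with 7 above 0. Their precision was low, with an SE of 0.20 (Hdc) to 0.50 (Fcer1a) against a median of 0.141 over all genes tested. The SE of a member is shared over the 4 groups and so is the same in each comparison of a pair of groups. For the 4 proteases, wild-type PBS replicate 2 was below its group mean and knockout PBS replicate 2 above. The widest difference, of Fcer1a, was 1.32 ± 0.50 (adjusted p = 0.477, limma).

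Under LPS, 7 of the 9 members had groups that lie apart between knockout and wild type, against 15.4% of all genes tested. They were lower in all 3 knockout libraries for Cma1, Tpsb2, Cpa3, Kit, Ms4a2 and Gata2 (10.4% of genes tested lay apart in this direction) and higher for Hdc (5.03%), while Mcpt4 and Fcer1a overlap. None of the 8 members tested was called by limma, where 0% of the 9841 genes were called and 744 had an unadjusted p under 0.05. The 6 lower members come from the same libraries and changed together within groups, mostly through the PBS libraries, so they are not separate observations. Hdc did not go with them (r of -0.38 to 0.00 within groups) but comes from the same libraries. The same 7 lay apart after median of ratios scaling (14.3% of genes tested) and upper quartile scaling (14.6%). Leaving out the 2 libraries richest in globin RNA leaves 2 against 2 and 40.4% of genes apart. Removing libraries cannot make groups that lie apart overlap, so that setting is no check of the 7.

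Of the 8 members tested, Tpsb2 had the lowest log2 fold change of FPKM + 1, with 166 to 187 FPKM in wild type and 103 to 129 in the knockout, at -0.65 ± 0.30 (SE, adjusted p = 0.669, limma; 95% interval -1.32 to 0.02). Cpa3 had 145 ± 0.975 FPKM (SD, n = 3) in wild type and 98.6 ± 1.65 in the knockout, which is a gap far beyond the spread within either group of 3, and a log2 fold change of -0.55 ± 0.35. Its SE is set by the spread shared over all 4 groups, including the wide PBS groups, and its adjusted p was 0.726 (limma). Cpa3 was also not called in any of 10 other settings, 1 of them with only the groups compared (adjusted p of at least 0.178, limma). Cma1 had 240 ± 12.0 FPKM in wild type and 169 ± 7.88 in the knockout (-0.50 ± 0.27, adjusted p = 0.700).

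The receptor and factor genes lay apart at lower levels. Kit had 7.46 ± 0.555 FPKM (SD, n = 3) in wild type under LPS and 5.75 ± 0.0947 in the knockout, a log2 fold change of -0.32 ± 0.21 (adjusted p = 0.733, limma). Gata2 had 3.34 ± 0.451 and 2.13 ± 0.195 FPKM (-0.47 ± 0.21, adjusted p = 0.660). Ms4a2 had 0.964 ± 0.305 and 0.412 ± 0.0825 FPKM, the nearest libraries being 0.615 and 0.507. Hdc went the other way, with 97.1 ± 2.95 FPKM in wild type and 136 ± 21.2 in the knockout (0.47 ± 0.20, adjusted p = 0.655, limma). For each of these 7 members a two-sided exact permutation of 3 against 3 libraries gave p = 0.10, the smallest it can give.

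Mcpt4 overlapped between the genotypes, with 139 ± 5.94 FPKM (SD, n = 3) in wild type under LPS and 135 ± 27.0 in the knockout (-0.06 ± 0.32; 95% interval -0.76 to 0.63). Fcer1a had 23.4 ± 4.21 and 21.1 ± 6.12 FPKM (-0.17 ± 0.50; 95% interval -1.27 to 0.93). In these bulk libraries, fewer mast cells and less RNA per mast cell cannot be told apart. Beside this, the 8 neutrophil markers summed to 153 to 280 FPKM in wild type under LPS and 714 to 2676 in the knockout, and the 10 macrophage markers to 848 to 1200 and 851 to 1009. The part of neutrophil RNA in these differences was not tested.

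The genotype difference in the LPS response was below 0 for 7 of the 8 members, with a median log2 difference of -0.94 against -0.02 over all genes tested, and no member was called (limma; 4 of 9841 genes, 0.0406%, were, and 946 had an unadjusted p under 0.05). It was -1.05 ± 0.38 for Cma1 (adjusted p = 0.449), -1.12 ± 0.43 for Tpsb2 (adjusted p = 0.467) and -0.84 ± 0.30 for Gata2 (adjusted p = 0.449). These comparisons share libraries, so their values are not separate evidence. Over both agents together, the difference of knockout from wild type had an unadjusted p of at least 0.15 for each of the 9 members (two-sided exact permutation of genotype within agent, 9 tests; lowest for Ms4a2, -0.25 in log2(FPKM + 1)).

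Within the groups, the proteases, Kit and Gata2 went up and down together over the 12 libraries, mostly through the PBS libraries. Hdc and Fcer1a went with each other but not with the proteases. In wild-type LPS replicates 1 to 3, Kit deviated from its group mean by -0.10, 0.02 and 0.09 in log2(FPKM + 1), and Tpsb2 by 0.07, 0.04 and -0.11. In the knockout LPS libraries the 4 proteases shared their sign, with Mcpt4 at -0.09, 0.31 and -0.22, whereas Kit had 0.01, -0.02 and 0.01. Deviations of log2(FPKM + 1) from the group mean were correlated over the 12 libraries, which share their depth and cell makeup, so these are descriptions without a test. The 6 pairs among Cma1, Mcpt4, Tpsb2 and Cpa3 had r of 0.66 to 0.96, with a median of 0.89. Gata2 had r of 0.71 to 0.87 with the 4 proteases, Ms4a2 0.51 to 0.86 and Kit 0.39 to 0.88. Hdc had r of -0.38 to -0.22 with the proteases and Fcer1a -0.40 to -0.06, whereas Hdc and Fcer1a had 0.73 with each other. Wild-type PBS replicate 2 carried part of these values. Over the other 11 libraries r was 0.47 to 0.92 among the proteases, 0.52 to 0.81 for Gata2 with them, 0.24 to 0.81 for Ms4a2, 0.29 to 0.90 for Kit, -0.33 to -0.08 for Hdc and -0.39 to 0.07 for Fcer1a, and 0.73 between Hdc and Fcer1a. The low ends of these ranges belong to Mcpt4 for Gata2, Ms4a2 and Kit. Hdc and Fcer1a deviated most in wild-type PBS replicate 1 (0.33 and 1.03) and replicate 3 (-0.49 and -1.30). Their r without replicate 2 therefore does not show whether the pair goes together without those libraries.

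**Figure D4:**
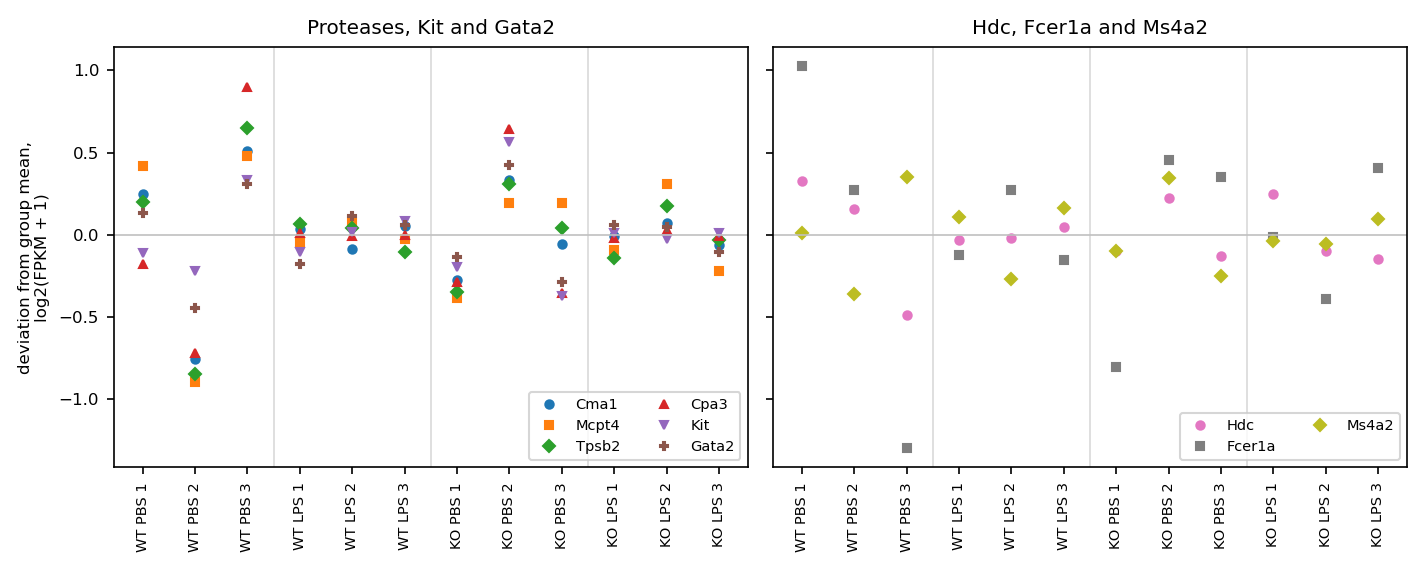
Deviation of each mast cell gene from its group mean in log2(FPKM + 1) (vertical axis), by library. Left, the 4 proteases, Kit and Gata2 lie together below 0 in wild-type PBS replicate 2 and above 0 in knockout PBS replicate 2. Right, Fcer1a and Hdc are above 0 in wild-type PBS replicate 1 and below 0 in replicate 3, where Ms4a2 is above 0.

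The summed level of the 4 proteases shows the spread under PBS. It was 579, 279 and 752 FPKM in the wild-type PBS libraries and 542 to 867 in the knockout PBS libraries, but 696 to 713 in wild type under LPS and 485 to 572 in the knockout under LPS. Wild-type PBS replicate 2, with the lowest sum, was also one of the libraries with globin RNA (327 FPKM). Wild-type LPS replicate 2 and knockout LPS replicate 1 held more globin RNA (2203 and 1867 FPKM). Their protease sums of 700 and 493 FPKM lay within the range of the other libraries of their groups. Within groups, r between macrophage markers and members was 0.82 for Cpa3 and 0.69 for Cma1, and -0.56 for Hdc and -0.47 for Fcer1a.

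The tested genes most like a member in this measure were, for Kit, Mrgprb1 (r = 0.92), a Mas-related receptor gene of mast cells, then Eri2 and Tal1 (0.92 and 0.91), the last encoding a partner of GATA factors. For Cma1 the nearest was Tpsb2 (0.96), for Mcpt4 N6amt1 (0.94), for Cpa3 Eef2k (0.97), for Gata2 Ddhd2 (0.93), for Hdc Sar1a (0.96) and for Fcer1a Ebi3 (0.95), a subunit of interleukins 27 and 35. Mrgprb1 itself had 3.82 to 8.64 FPKM in wild type under PBS, 6.28 to 6.83 under LPS, 6.02 to 13.0 in the knockout under PBS and 4.06 to 5.62 under LPS. Its LPS groups thus lay apart in the same direction as those of Kit, without a call (-0.42 ± 0.28, adjusted p = 0.732, limma). For the protease sum, members left out, the nearest were Fscn1, Jmjd7 and Ogfod3 (0.95 each), Krt222 (0.94) and Rpl29 (0.93), none of them in the lists. Among genes of the other lists, Slc18a2, the vesicular monoamine transporter that loads histamine into granules, had r = 0.845 with the protease sum (mean 1.76 FPKM) and Tpsg1 0.78. Over the lists that hold Slc18a2 and Tpsg1, r ran from -0.65 for Gzmb to 0.845 for Slc18a2. From the list of basophil markers, Cyp11a1, a steroid-forming enzyme gene, had r = 0.91 (mean 1.95 FPKM) and Cd200r3 0.89 (mean 0.168 FPKM). The rest of that list went less closely or the other way, with Prss34 at 0.47, Il13 at -0.24, Ccl3 at -0.46, Mcpt8 at -0.48 and Il4 at -0.79. Slc18a2, Tpsg1, Cyp11a1 and Cd200r3 were chosen after their values were seen, and the part of basophil RNA was not tested.

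The members can also be compared as ratios within a library, chosen after the values were seen and so given without a test. Within groups Hdc and Fcer1a did not go with Cpa3 (r = -0.38 and -0.40), and other cells can express both. Their ratios to Cpa3 therefore need not describe mast cells alone. Mcpt4 to Cma1 was 1.11, 0.887 and 0.959 in wild type under PBS and 0.552, 0.647 and 0.551 under LPS, with no overlap. In the knockout it was 0.778, 0.763 and 0.999 under PBS and 0.743, 0.931 and 0.704 under LPS, which overlap. Hdc to Cpa3 was 2.89, 3.75 and 0.770 in wild type under PBS and 0.651 to 0.692 under LPS, and 0.874 to 1.38 and 1.24 to 1.65 in the knockout. All 3 wild-type LPS libraries had less Mcpt4 per Cma1 and less Hdc per Cpa3 than any knockout library.

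**Figure D5:**
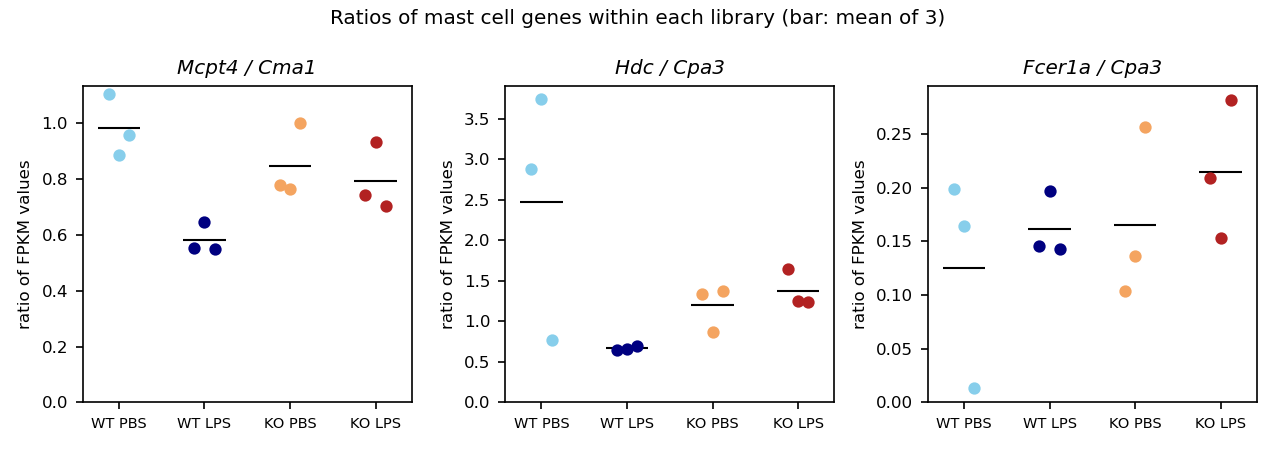
Ratios of FPKM values within each library (vertical axis) for Mcpt4 to Cma1, Hdc to Cpa3 and Fcer1a to Cpa3, by group, with bars for the mean of 3. The wild-type LPS libraries lie below all others for Mcpt4 to Cma1 (0.551 to 0.647) and for Hdc to Cpa3 (0.651 to 0.692).

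In the wider lists of mast cell functions, genes of signalling, granules, transcription factors and lipid mediators had more calls lower than higher with LPS in both genotypes, as did all genes tested (37.4% lower and 24.8% higher in wild type, 33.3% and 19.9% in the knockout). Many of them are also expressed by macrophages and other leukocytes. Of 20 tested genes of FcεRI and KIT signalling, 16 were called lower and 0 higher in wild type, and 12 lower and 0 higher in the knockout, with median log2 fold changes of -0.88 and -0.85. Rasgrp4, a Ras activator of mast and other myeloid cells, fell by 2.32 ± 0.18 in wild type (adjusted p = 2.93e-06, limma), and the phosphatase gene Ptpn6 by 1.73 ± 0.15 in wild type and 1.41 ± 0.15 in the knockout. Of 14 tested genes of granule exocytosis, heparin and serglycin, 9 were called lower and 1 higher in each genotype, among them Rab27a, a GTPase of granule docking (-1.39 ± 0.29 and -1.41 ± 0.29). The higher one was Ext1, a heparan sulfate polymerase (0.95 ± 0.17 and 0.55 ± 0.17).

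Of 13 tested transcription factors of the mast cell lineage, 7 were called lower and 1 higher in wild type and 6 and 1 in the knockout, shares near those of all genes tested (62.2% called in wild type and 53.2% in the knockout), led by Lyl1 (-2.64 ± 0.20 and -2.36 ± 0.20). Of 12 tested surface receptors, 2 were higher and 3 lower in wild type and 3 higher and 2 lower in the knockout. Among these Adora3, an adenosine receptor that enhances mast cell degranulation, rose by 0.57 ± 0.23 and 0.72 ± 0.23, and C3ar1, the receptor for the anaphylatoxin C3a, fell by 2.43 ± 0.23 and by 3.04 ± 0.23. Of 4 tested genes of histamine handling, 2 were lower in wild type, Hnmt, which inactivates histamine (-1.10 ± 0.36), and the receptor gene Hrh2 (-0.52 ± 0.19), and in the knockout 1, Hrh2 (-0.76 ± 0.19). The lipid mediator genes were called in all 6 tested in both genotypes, 2 higher and 4 lower, with Ptgs2, which encodes inducible cyclooxygenase, at 2.23 ± 0.27 and 3.39 ± 0.27, and Ltc4s, leukotriene C4 synthase, at -2.50 ± 0.56 in wild type. Of 3 tested proteases outside the members, Gzmb was higher (1.51 ± 0.39 and 1.94 ± 0.39) and Ctsc, which activates granule proteases, lower (-1.50 ± 0.15 and -1.40 ± 0.15). In none of these 7 lists was a gene called between the genotypes under PBS, under LPS or in the interaction (limma).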

How the data were processed

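Total RNA of peritoneal lavage cells was sequenced in 12 libraries, per the labels' protocols. The authors deposited 1 table of symbols and values per library. The unit is not stated there, and the deposited values were taken as FPKM because they are not whole, have library totals of 343874 to 388129 and Cufflinks is named. The submitters' processing notes list TopHat, Cufflinks, HTSeq, DESeq and build GRCm38, with no version, role or order. Of 21878 rows, 27 with symbols turned into dates were left out. FPKM carries no read numbers, so no counting intervals are given, and fold changes of log2(FPKM + 1) understate changes of low genes.

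The 9841 genes (45.0%) averaging 1 FPKM or more were fitted with limma 3.58.1 in R 4.3.3 (4 group means over 12 libraries, trend and robust, two-sided, Benjamini-Hochberg, threshold 0.05), a fit tested on simulated data. The median SE was 0.141, and 0.199 for the interaction. Single values used exact permutation tests. All 9 members are named. From other lists up to 4 called genes with the largest change, and the 5 genes most correlated with a member, could be named. The members and lists were chosen with earlier results of these data known. Alternatives were another pseudocount (0.1), other filters and scalings, no trend, only the groups compared, a replicate term, each library left out and, chosen after seeing the data, no globin-rich libraries. Positions came from GENCODE (GRCm38), promoters from RefSeq.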

Additional observations from a re-analysis of the deposited data

How the results depend on the processing

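Of 867 refits of the members' log2 fold changes (40 values), 832 kept their direction and side of the threshold or were not called in either, 27 lost a call, 8 gained one, and 0 reversed a called direction. Most of the 40 values were not called in the main fit and so had no call to lose. All 27 losses fell on the called values, which are Cma1, Fcer1a and Hdc in wild type and Gata2 in the knockout. The count of members called for LPS in wild type was 5 under median of ratios scaling, 1 without the 2 libraries richest in globin RNA and 0 without the 3 richest, and 2 to 5 with a library left out (5 without wild-type PBS replicate 3). In the knockout it was 0 with no filter, a minimum of 5 FPKM (Gata2 is then not tested), median of ratios scaling and without the 2 globin-rich libraries, and 0 to 3 with a library left out (3 without wild-type PBS replicate 2). The Hdc call in wild type was lost without the 3 globin-rich libraries (-0.68 ± 0.25, adjusted p = 0.0502, limma), and that of Cma1 in 6 of 10 settings and 9 of 12 leave-outs. The Fcer1a call in wild type was lost in 2 of 10 settings and 0 of 12 leave-outs, and the Gata2 call in the knockout in 4 of 9 and 5 of 12. No member was called between genotypes under PBS, under LPS or in the interaction in any of these fits. Genes called between genotypes under PBS were 4 at a minimum of 5 FPKM, 7 under median of ratios, 0 with only the groups compared, 0 and 1 without the 2 and 3 globin-rich libraries, and 0 to 39 over leave-outs. Under LPS they were 2 with no filter, 3 with only the groups compared and 0 to 29 over leave-outs. For the interaction they were 1 with no filter and with a minimum of 5 FPKM, 7 under median of ratios and without trend, 9 under upper quartile scaling, 0 without the 2 or 3 globin-rich libraries and 0 to 49 over leave-outs. The cause was not tested.

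Whether replicate numbers pair the libraries is not known. Deviations of same-numbered libraries correlated above 0.1 in 5 of 18 pairs (r of -0.25 to 0.19). Differently numbered libraries of different groups had r of -0.29 to 0.38. With 3 libraries a group, these values cannot settle the pairing. With the replicate block, 0 members were called for LPS in the knockout, 3 genes between genotypes under PBS and 0 in the interaction. Depth is not known, so Ms4a2 at under 1 FPKM may rest on few reads.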
